A study of Mus musculus with 5 samples.

Results

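Semaphorins, ephrins, Slits, netrin-1, reelin and their receptors were examined in the iridocorneal angle, the ring of tissue at the root of the iris that holds the aqueous outflow structures. The genes were taken by name: protein-coding genes whose symbol begins with Sema or Plxn, the Epha, Ephb, Efna, Efnb, Slit and Robo genes with a number, and Ntn1, Dcc, Nrp1, Nrp2, Unc5b, Unc5c and Reln. This gave 65 genes among the 56941 identifiers of the count table, and all 65 passed the filter on low counts that left 19713 genes to test. RNA-seq had been made from 3 pools of DBA/2J mice and 2 pools of DBA/2J-Gpnmb+/SjJ mice, called Gpnmb+ here, which were untreated, 12 months old and of both sexes per the labels. DBA/2J mice develop pigmentary glaucoma and carry the Gpnmb R150X and Tyrp1 b mutations, whereas the Gpnmb+ line carries the Tyrp1 mutation with a wild-type Gpnmb on the same strain background. Each pool was described as the dissected angles of 3 mice, although the Gpnmb+ library names list fewer animals than the DBA/2J names. The spread between mice inside a pool was thus not measured, and remnants of iris and ciliary body could stay attached to the dissected ring.

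Guidance molecules are secreted or membrane-bound cues that attract or repel a growing axon or a migrating cell through a receptor on its surface. Semaphorins signal through plexins, with neuropilins as co-receptors for most class 3 members, while ephrins bind Eph receptors on a neighbouring cell and Slits bind Robo receptors. Netrin-1 attracts through Dcc and repels through Unc5 receptors, and reelin, a large secreted matrix protein, acts through the lipoprotein receptors Vldlr and Lrp8 and the adaptor Dab1. Outside the nervous system the same families act in blood vessels, epithelia and the patterning of the eye.

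The libraries held 43900661 to 49837758 counts. Gpnmb itself, a glycoprotein of melanosomes and phagocytes, had 2042, 2234 and 1946 counts in DBA/2J against 129659 and 110568 in Gpnmb+, the order the genotypes give. The angle was checked by 7 trabecular meshwork markers, the lowest of which had 1651 counts in any pool. Sex-linked RNA went against the labels: the study describes mice of both sexes in each group, yet the Y-linked Ddx3y gave 3608, 4168 and 1567 counts in DBA/2J against 0 and 4 in Gpnmb+. Kdm5d, Uty and Eif2s3y had at most 1 count in a Gpnmb+ pool and at least 325 in a DBA/2J pool. Xist, expressed from the inactive X chromosome, had 596, 0 and 2417 counts against 7843 and 9152. Effects of genotype and of the sex of the pooled mice therefore cannot be told apart.

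Of the 65 guidance genes, 5 rose in DBA/2J and 0 fell by edgeR's quasi-likelihood test, at a Benjamini-Hochberg adjusted p no higher than 0.05 with a 1.5-fold difference or more. The genes that rose were Reln (reelin), Unc5c (a netrin receptor), Slit2 (a Slit ligand), Epha5 (an ephrin-A receptor) and Sema3e (a class 3 semaphorin), between 1.81 and 3.00-fold. They make up 7.69% of the guidance genes, where 0.796% of all genes tested were called, 0.502% higher and 0.294% lower. The guidance genes were chosen with earlier results of these data known. At an unadjusted p of at most 0.05 with the same fold, 11 guidance genes passed, 7 higher and 4 lower (16.9%, against 8.67% of all genes, 4.2% higher and 4.48% lower). By DESeq2's Wald test, the study's own tool, these same 11 were called, 7 higher and 4 lower, where 5.21% of the 17798 genes with an adjusted p were called, 3.06% higher and 2.15% lower. In this bulk tissue, fewer cells of a type and less RNA per cell cannot be told apart, for these genes and for all others below.

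The guidance genes as a whole, the called ones included, lay on both sides of no difference. Log2 fold changes, given throughout as DBA/2J minus Gpnmb+, were above 0 for 33 genes and below 0 for 32. Their median was 0.0078 over the guidance genes and -0.02 over all genes tested, and the median size regardless of sign was 0.28 and 0.20. In 17 genes (26.2%) every DBA/2J pool stood above both Gpnmb+ pools, and in 14 (21.5%) every DBA/2J pool stood below them. Among all genes those shares were 17.3% and 17.2% (34.5% for both). A change under 1.5-fold was fitted for 52 of the 65. Ligands supplied 3 of the calls among 33 genes and receptors 2 among 32.

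**Figure D1:**
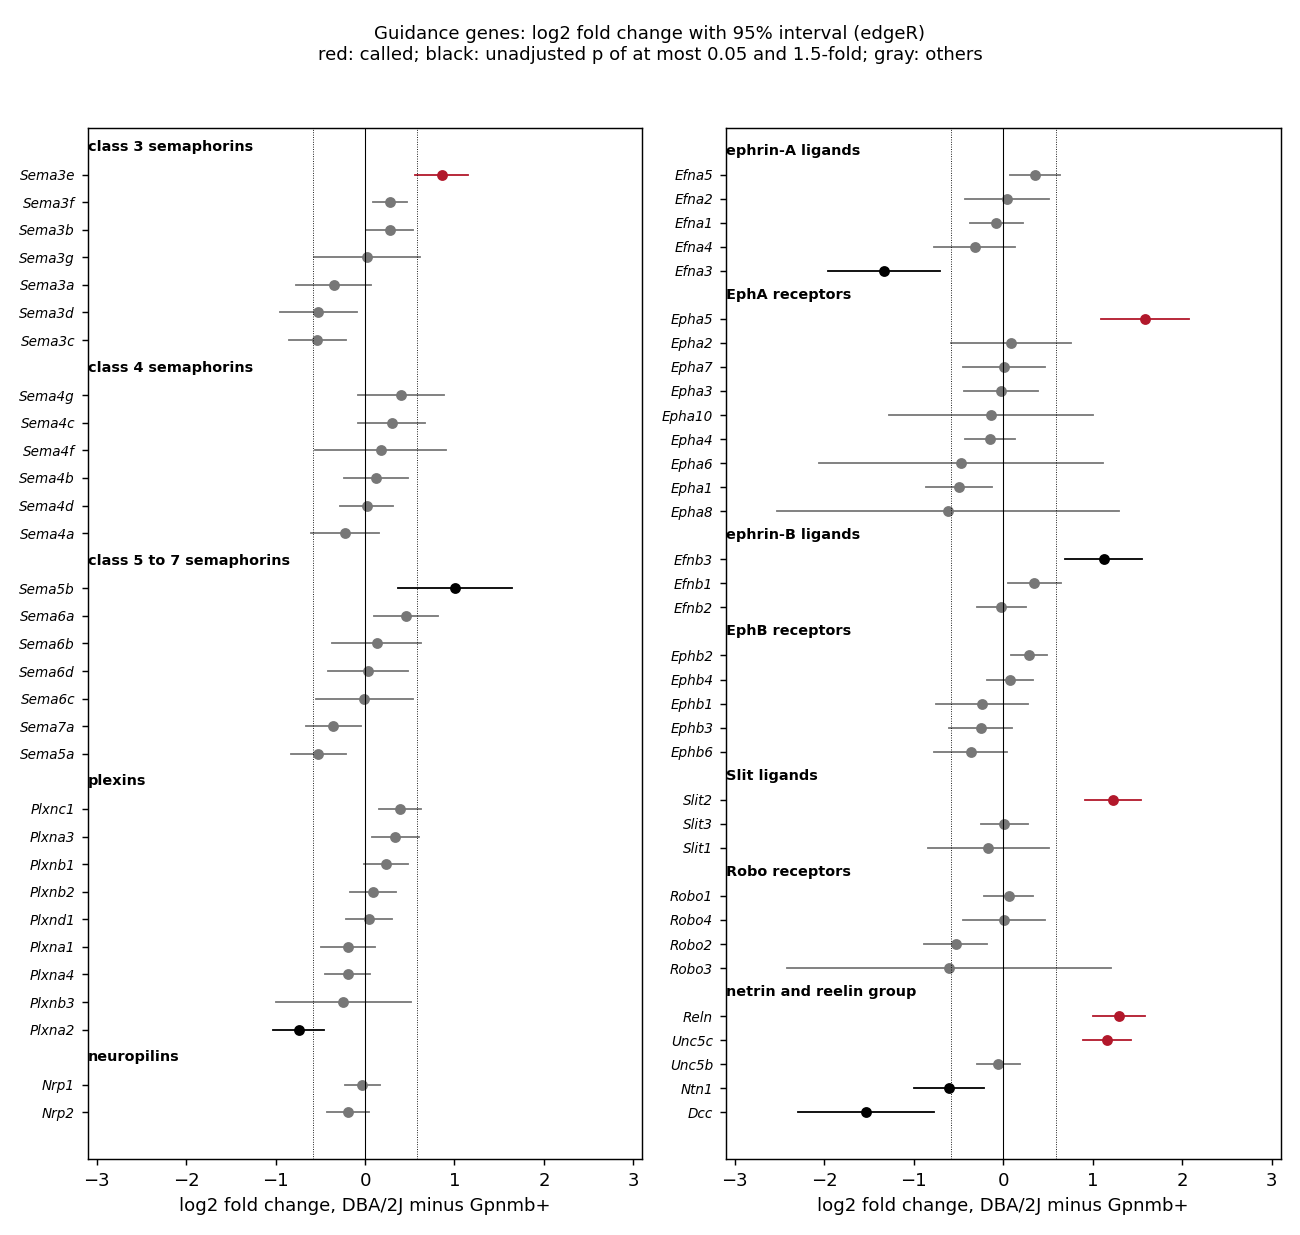
Log2 fold change (DBA/2J minus Gpnmb+, horizontal axis) of each of the 65 guidance genes by family, with 95% confidence intervals from edgeR as horizontal lines and 1.5-fold as dotted lines. The 5 called genes (red) all lie to the right, and the 6 black points, which passed only the unadjusted threshold, fall on both sides.

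The called genes were also described by their position and length, which were not used to choose them. Reln (chromosome 5, 22089452 to 22549700), Slit2 (chromosome 5, 48140480 to 48465075), Epha5 (chromosome 5, 84202620 to 84565348) and Sema3e (chromosome 5, 14075290 to 14306719) are on chromosome 5 and Unc5c (chromosome 3, 141170977 to 141540685) is on chromosome 3, all on GRCm39. Chromosome 5 holds 8 of the guidance genes. Of its 1244 tested genes, 8 were called higher (0.643%), 4 of them guidance genes. The 5 genes are long, spanning 231 to 460 kb with a median of 363 kb, whereas the other 60 guidance genes had a median span of 40.4 kb. At a limit of 200 kb, chosen after the values were seen, 18 guidance genes were longer and held all 5 calls, and 47 were shorter and held 0. Over all genes, 23 of 1001 longer genes were called higher (2.30%) and 76 of 18612 shorter ones (0.408%).

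The promoters of the called genes are shown because these 5 genes rose together. Each sequence is RefSeq's, on GRCm38.p6, and runs 5′ to 3′ on the gene's strand from 250 bases before to 50 after the annotated start. Capitals mark matches on either strand to TATAAA (the TATA box), CCAAT (the CAAT box), GGGCGG (the core of a GC box), CACGTG (an E-box), TGANTCA (the AP-1 site) or ATTGTT (the SOX core), and no matches overlapped.
Epha5: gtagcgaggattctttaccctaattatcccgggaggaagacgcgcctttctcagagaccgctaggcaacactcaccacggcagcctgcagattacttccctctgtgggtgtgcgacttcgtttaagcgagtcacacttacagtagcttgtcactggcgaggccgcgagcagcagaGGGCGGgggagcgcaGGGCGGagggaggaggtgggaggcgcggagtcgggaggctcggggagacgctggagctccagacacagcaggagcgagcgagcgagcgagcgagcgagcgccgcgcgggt
Reln: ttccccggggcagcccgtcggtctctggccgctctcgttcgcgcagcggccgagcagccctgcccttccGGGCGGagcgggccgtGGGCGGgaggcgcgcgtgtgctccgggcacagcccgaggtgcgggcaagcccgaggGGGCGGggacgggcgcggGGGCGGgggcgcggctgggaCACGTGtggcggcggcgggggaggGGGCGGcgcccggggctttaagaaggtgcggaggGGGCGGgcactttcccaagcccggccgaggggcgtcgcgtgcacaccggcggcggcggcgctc
Sema3e: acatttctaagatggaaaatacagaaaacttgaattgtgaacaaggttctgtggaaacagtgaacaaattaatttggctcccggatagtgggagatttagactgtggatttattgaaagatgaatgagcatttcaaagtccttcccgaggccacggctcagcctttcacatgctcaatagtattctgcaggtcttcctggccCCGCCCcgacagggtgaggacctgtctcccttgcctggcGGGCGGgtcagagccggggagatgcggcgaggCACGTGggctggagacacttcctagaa
Slit2: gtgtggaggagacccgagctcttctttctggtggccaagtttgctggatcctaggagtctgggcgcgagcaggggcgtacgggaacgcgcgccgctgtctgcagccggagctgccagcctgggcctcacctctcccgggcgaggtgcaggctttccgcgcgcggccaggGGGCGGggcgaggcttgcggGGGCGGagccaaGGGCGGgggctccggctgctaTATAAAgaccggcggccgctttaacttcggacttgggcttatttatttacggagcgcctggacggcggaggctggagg
Unc5c: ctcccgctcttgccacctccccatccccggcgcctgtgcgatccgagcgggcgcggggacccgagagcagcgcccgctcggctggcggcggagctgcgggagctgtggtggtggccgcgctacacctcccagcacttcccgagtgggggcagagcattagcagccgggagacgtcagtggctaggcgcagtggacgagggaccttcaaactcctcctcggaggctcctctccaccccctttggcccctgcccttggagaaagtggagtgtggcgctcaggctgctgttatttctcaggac
These stretches lie at chr5:84417333-84417632 (minus strand) for Epha5, chr5:22344656-22344955 (minus) for Reln, chr5:14025026-14025325 (plus) for Sema3e, chr5:47982905-47983204 (plus) for Slit2 and chr3:141465314-141465613 (plus) for Unc5c. GGGCGG occurred 6 times for Reln, 3 times for Slit2 and 2 times each for Epha5 and Sema3e. CACGTG occurred once each for Reln and Sema3e, and TATAAA occurred once for Slit2. The Unc5c stretch held none of the 6 motifs. GGGCGG was present in 35.7% of the 32851 promoters in the table and in 70.8% of the 72 promoters matched to 56 guidance genes. CACGTG was present in 7.15% and 8.33%, and TATAAA in 13.6% and 2.78%. CpG made up a median of 2.34% of dinucleotides over all promoters and 6.52% over those of guidance genes, with 11 CpG for Sema3e and 24 to 47 for the other called genes.

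Reelin and the netrin pathway held 2 of the 5 calls in a group of 5 genes, each named singly in the rule. Of all genes tested, 0.796% were called. Reln had 31808, 28368 and 32612 counts in DBA/2J against 15748 and 12850 in Gpnmb+, or 702 ± 36.9 (SD, n = 3) and 287 ± 33.7 (SD, n = 2) counts-per-million on TMM-scaled library sizes (CPM). The lowest DBA/2J pool held 661 CPM and the highest Gpnmb+ pool 310, so the groups did not overlap. Reln rose 2.45-fold, with a log2 fold change of 1.29 (SE 0.12) and an adjusted p of 0.0244 by edgeR. Its antisense neighbour Gm10475, which shares exon bases with it, had at most 16 counts in any pool.

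Unc5c, a receptor through which netrin-1 repels, had 3262, 3182 and 3765 counts in DBA/2J against 1859 and 1589 in Gpnmb+. The groups were far apart, at 77.3 ± 6.16 and 34.6 ± 2.94 CPM (SD, n = 3 and 2). It rose 2.24-fold (log2 1.16, SE 0.11, adjusted p = 0.0250 by edgeR). Unc5b, a netrin receptor known from vascular endothelium, had 1439, 1517 and 1460 counts against 1865 and 1598. As CPM these overlapped, at 32.4, 35.3 and 32.7 against 36.8 and 32.7 CPM, and the log2 fold change of -0.05 had an interval of -0.29 to 0.18.

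The ligand Ntn1 and the attractive receptor Dcc were at lower values in every DBA/2J pool, without passing the adjusted test. Ntn1 had 2357, 2657 and 3155 counts in DBA/2J against 4154 and 5180 in Gpnmb+, or 61.9 ± 8.86 and 93.9 ± 17.0 CPM. Its log2 fold change was -0.60 (SE 0.16, adjusted p = 0.160 by edgeR). Dcc was rare, with 18, 27 and 28 counts against 91 and 69. The groups did not overlap (0.554 ± 0.129 and 1.60 ± 0.271 CPM), and the log2 fold change was -1.53 (SE 0.31, adjusted p = 0.0955). Of the 5 genes of this group, 4 thus passed the unadjusted threshold, Reln and Unc5c higher in DBA/2J and Ntn1 and Dcc lower. Of all genes tested, 8.67% passed it. These 5 were named singly, with earlier results of these data known, so their share is no independent result. Of relatives outside the rule, Ntn3, Ntn4, Unc5a, Unc5d, Neo1, Vldlr and Lrp8 did not pass it. Ntn5, with at most 10 counts, and Dab1 did.

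**Figure D2:**
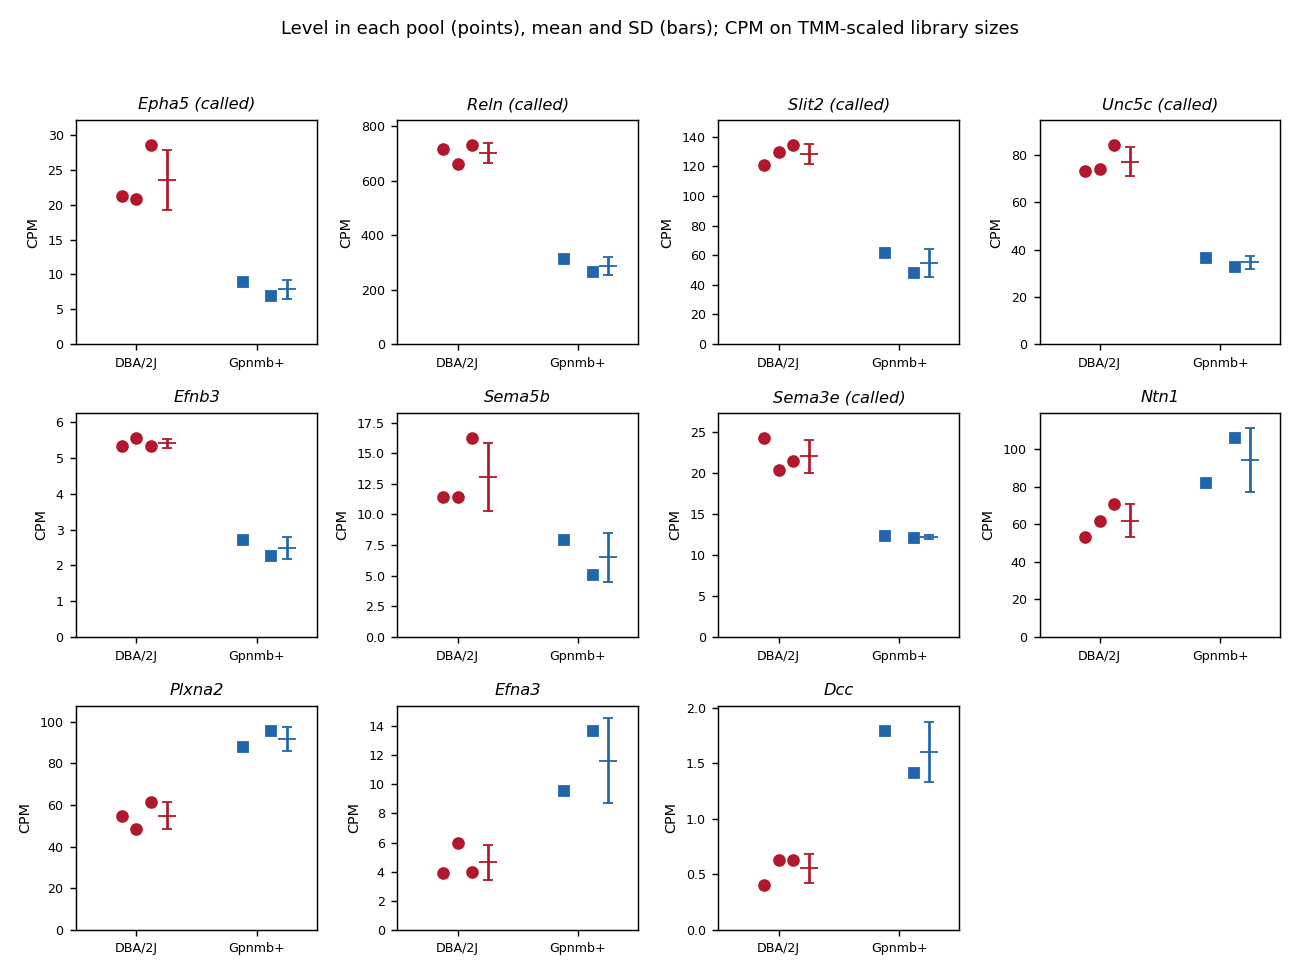
CPM on TMM-scaled library sizes (vertical axis, from 0) of the 11 guidance genes past the unadjusted threshold, with a point for each DBA/2J pool (red circles) and Gpnmb+ pool (blue squares) and the mean and SD beside them. The panels run from Reln at 702 against 287 CPM to Dcc at 0.554 against 1.60 CPM. The pools of the 2 genotypes do not overlap in any panel, but the genes were chosen by that threshold on these same pools. Of all genes tested, 34.5% do not overlap.

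Among the Slits and Robos, Slit2 alone was called. Slit2, a secreted repellent, had 5387, 5558 and 5999 counts in DBA/2J against 3122 and 2353 in Gpnmb+. The levels were 128 ± 6.72 and 54.8 ± 9.49 CPM (SD, n = 3 and 2), with every DBA/2J pool above both Gpnmb+ pools. It rose 2.34-fold (log2 1.23, SE 0.13, adjusted p = 0.0283 by edgeR). The other Slit genes had overlapping pools, and the log2 fold change over the family ran from -0.17 to 1.23.

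Its receptors did not pass the test. Robo1, the Robo gene with the highest level per length, had 1376, 1163 and 1432 counts against 1532 and 1337, with overlapping pools. The interval of its log2 fold change ran from -0.21 to 0.34. Robo2 had 965, 964 and 1287 counts against 1833 and 1677. Each DBA/2J pool was thus below both Gpnmb+ pools, at 21.7, 22.5 and 28.9 against 36.1 and 34.3 CPM, with a log2 fold change of -0.53 (SE 0.14, adjusted p = 0.164). Robo4, a receptor of endothelial cells, had 542, 389 and 560 counts against 625 and 494, which overlapped as CPM.

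Class 3 semaphorins, which are secreted, were split in direction. Of 7 genes, 3 had all DBA/2J pools above the Gpnmb+ pools, 3 had all of them below, and 1 overlapped. That is 42.9% each way, where 17.3% of all genes tested were above and 17.2% below. Only 1 of the 7, Sema3e, passed the adjusted or the unadjusted threshold. Sema3e, a ligand that binds plexin D1 without a neuropilin, had 1080, 874 and 960 counts in DBA/2J against 627 and 588 in Gpnmb+. The 2 Gpnmb+ pools were close to each other (12.2 ± 0.238 CPM, SD), and the DBA/2J pools were higher at 22.1 ± 2.02 CPM. Sema3e rose 1.81-fold (log2 0.86, SE 0.12, adjusted p = 0.0484 by edgeR), just inside the threshold. Its receptor Plxnd1 had 4963, 4336 and 4804 counts against 5697 and 4639. Those pools overlapped, and the log2 fold change was 0.04 with an interval of -0.21 to 0.30.

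Sema3f, a repellent that acts through Nrp2, had 4927, 4581 and 4680 counts against 4628 and 4195, and Sema3b had 3528, 3602 and 3733 against 3791 and 2987. As CPM, both were above the Gpnmb+ pools in every DBA/2J pool, each by 0.28 on the log2 scale (adjusted p of 0.174 and 0.292 by edgeR). Sema3c, an attractant in heart and vessel development, had 2635, 2204 and 3015 counts against 4095 and 4453. Sema3d had 1530, 2161 and 1645 against 2789 and 3003. These lay below the Gpnmb+ pools throughout, at log2 fold changes of -0.53 and -0.52 (adjusted p of 0.144 and 0.240). Sema3a, the founding axon repellent of the class, had a log2 fold change of -0.35 with an interval of -0.77 to 0.07. Sema3a, Sema3c, Sema3d and Sema3e are all on chromosome 5, and only Sema3e of the 4 was called.

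Membrane-bound semaphorins were not called. Sema5b, a transmembrane repellent, was the member past the unadjusted threshold, at 508, 492 and 725 counts in DBA/2J against 402 and 248 in Gpnmb+. Its pools were widely spread, at 13.0 ± 2.78 and 6.50 ± 2.02 CPM, though without overlap. The log2 fold change was 1.01 (SE 0.26, adjusted p = 0.152 by edgeR). Its paralogue Sema5a had 1996, 1817 and 1626 counts against 3266 and 2652. Every DBA/2J pool was lower here, the opposite order to Sema5b, at a log2 fold change of -0.52 (adjusted p = 0.132). Sema6a, a ligand of Plxna2 and Plxna4, had 1728, 1548 and 2087 counts against 1640 and 1315, and Sema7a, a lipid-anchored ligand, had 568, 471 and 578 against 767 and 793. Neither pair of groups overlapped as CPM, with log2 fold changes of 0.45 and -0.36 (adjusted p of 0.227 and 0.259). In class 4, which includes immune semaphorins, the 6 genes ran from -0.23 to 0.40 and 5 overlapped. Sema4d, the class 4 gene with the highest level per length, had 4270, 4687 and 3756 counts against 4884 and 4607.

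Neuropilins and plexins, the semaphorin receptors, gave no call among 11 genes. Plxna2 came closest, at 2429, 2085 and 2736 counts in DBA/2J against 4448 and 4676 in Gpnmb+. The levels were 54.8 ± 6.38 and 91.6 ± 5.61 CPM and did not overlap. Its log2 fold change was -0.74 (SE 0.12, adjusted p = 0.0571 by edgeR). Plxna2 shares exon bases with the antisense Gm6403, which had at most 41 counts in a pool. Plxnc1, the receptor of Sema7a, had 2491, 2741 and 2881 counts against 2351 and 2314. It was above the Gpnmb+ pools in each DBA/2J pool (log2 0.39, adjusted p = 0.134), whereas its ligand Sema7a was below them.

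Plxnb2, a class 4 semaphorin receptor of many epithelia, had 30552, 30735 and 28205 counts against 33833 and 29827. It overlapped between genotypes, with an interval of -0.17 to 0.34 around a log2 fold change of 0.09. Nrp1, which also binds VEGF, had 6236, 5822 and 6404 counts against 7552 and 6681, overlapping as CPM. Nrp2 had 8213, 7825 and 7354 against 10805 and 9345. Its DBA/2J pools were just below the others, at 185, 182 and 165 against 213 and 191 CPM (log2 -0.19, adjusted p = 0.404).

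Among Eph receptors, 1 of 14 was called. Epha5, a tyrosine kinase receptor for ephrin-A ligands known from retinal axon mapping, had 943, 894 and 1275 counts in DBA/2J against 448 and 336 in Gpnmb+. DBA/2J pool 3 was the highest (28.6 CPM), the other two were alike (21.2 and 20.8), and both Gpnmb+ pools were lower (8.83 and 6.87). Epha5 rose 3.00-fold, the largest of the 5 called changes (log2 1.58, SE 0.20, adjusted p = 0.0393 by edgeR). Epha1, an epithelial receptor, had 1661, 1756 and 1883 counts against 2408 and 3212. All DBA/2J pools were below, at a log2 fold change of -0.49 (adjusted p = 0.199). Epha4, the EphA gene with the highest level per length, had 4041, 4286 and 3959 against 4719 and 5560, and Ephb4, a venous receptor, had 3459, 2838 and 3334 against 3695 and 3206. Both overlapped as CPM. Ephb2 had 1601, 1602 and 1571 against 1489 and 1458, above in each DBA/2J pool by CPM, with a log2 fold change of 0.29 (adjusted p = 0.176). Ephb6 had 1056, 1208 and 850 against 1586 and 1450, below in each, with a log2 fold change of -0.36 (adjusted p = 0.365 by edgeR).

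The ephrins held 0 calls among 8 genes, and 2 passed the unadjusted threshold in opposite directions. Efna3 had 175, 257 and 177 counts in DBA/2J against 485 and 669 in Gpnmb+. The groups were well apart (4.63 ± 1.17 and 11.6 ± 2.91 CPM), at a log2 fold change of -1.33 (SE 0.26, adjusted p = 0.0867 by edgeR). Gm15998, an antisense gene that shares 759 exon bases with Efna3, had at most 9 counts. Efnb3, a transmembrane ligand of EphB receptors and of Epha4, had 237, 239 and 238 counts against 137 and 111. The DBA/2J pools were nearly equal (5.41 ± 0.135 CPM) and above both Gpnmb+ pools (2.48 ± 0.305 CPM), with a log2 fold change of 1.12 (SE 0.17, adjusted p = 0.0556).

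Of the other possible Epha5 ligands, Efna5 had 3816, 3394 and 4186 counts against 3694 and 3029, above the Gpnmb+ pools in each DBA/2J pool by CPM (log2 0.36, adjusted p = 0.227). Efna4 had 234, 269 and 333 counts against 382 and 404, below in each pool (log2 -0.32). Efna1 had 1007, 1065 and 1185 against 1430 and 1165, and Efna2 had 121, 119 and 145 against 148 and 135, which overlapped. The arterial ligand Efnb2 had 4470, 4413 and 3968 counts against 4578 and 5257, also with overlap. Thus the ephrin-A genes ran from -1.33 to 0.36 beside a called EphA receptor.

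Since the sex of the mice differed between pools, the 3 X-linked guidance genes were set apart. Efnb1 had 2262, 1787 and 2266 counts in DBA/2J against 2001 and 1743, Plxna3 had 635, 575 and 617 against 548 and 541, and Plxnb3 had 36, 59 and 50 against 72 and 58. Efnb1 and Plxna3 were above the Gpnmb+ pools in each DBA/2J pool, at log2 fold changes of 0.35 and 0.34 (adjusted p of 0.253 and 0.224 by edgeR), and Plxnb3 overlapped. The 5 called genes are autosomal. Across the DBA/2J pools, where Xist ran from 0 to 2417 counts, the highest and lowest pool differed by 1.11-fold for Reln, 1.11-fold for Slit2, 1.15-fold for Unc5c, 1.19-fold for Sema3e and 1.37-fold for Epha5. The part of sex in the calls was not tested.

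Levels between genes were compared as CPM per kb of the canonical transcript. Of the 65 genes, 21 were at 10 or more, 34 from 1 to under 10, and 10 under 1, and 7 had under 100 counts in every pool. Plxnb2 was highest at 99.0 CPM per kb over the 5 pools, followed by Reln at 45.8, Sema3f at 29.4 and Nrp2 at 27.7. The highest of the other families were Sema4d (21.2), Efnb2 (19.6), Efna1 (17.0), Ephb4 (16.4), Epha4 (15.4), Slit2 (9.94), Sema6a (7.52) and Robo1 (3.20). Reln stood at 60.1 CPM per kb in DBA/2J and 24.5 in Gpnmb+, so it ranked behind Plxnb2 in DBA/2J and below Sema3f (26.1), Nrp1 (27.8) and Nrp2 (29.9) in Gpnmb+. Slit2 went from 5.50 to 12.9, and Unc5c from 3.58 to 8.01, between Gpnmb+ and DBA/2J.

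**Figure D3:**
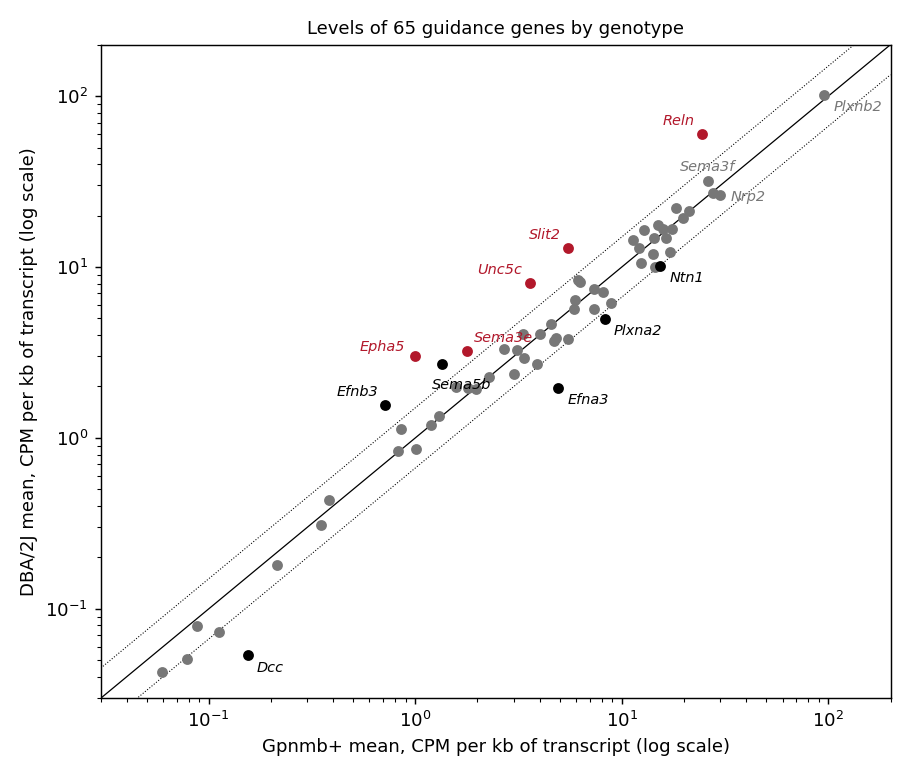
Mean level of each of the 65 guidance genes in the Gpnmb+ pools (horizontal axis) and the DBA/2J pools (vertical axis), in CPM per kb of canonical transcript on log scales, with equality as a solid line and 1.5-fold as dotted lines. The called genes (red) lie above the upper dotted line, Reln at 60.1 against 24.5, and black points passed only the unadjusted threshold.

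The wider pathway was read from 90 further genes: other netrins, repulsive guidance and Flrt or Slitrk molecules, other receptors and co-receptors, and intracellular effectors. All 90 were tested, and 1 was called higher (1.11%, where 0.502% of all genes were called higher) and 0 lower. A single call in 90 genes is near that background share. That gene was Dab1, the cytoplasmic adaptor that reelin receptors use, at 1702, 1806 and 2209 counts in DBA/2J against 854 and 813 in Gpnmb+. Its pools did not overlap, and it rose by 1.37 on the log2 scale (SE 0.13, adjusted p = 0.0262 by edgeR). The reelin receptors themselves were not called. Vldlr had 1408, 2002 and 1975 counts against 1973 and 2508, and Lrp8 had 854, 714 and 890 against 753 and 868. Both overlapped, with log2 fold changes of -0.14 and 0.19.

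At the unadjusted threshold, 11 of the 90 genes were higher (12.2%) and 2 lower (2.22%) in DBA/2J, where 4.2% of all genes were higher and 4.48% lower. Of the 19 other ligands and matrix cues, 6 were higher (31.6%) and 1 lower (5.26%), with a median log2 fold change of 0.32, and the 53 effectors and 18 receptors had medians of 0.02 and -0.14. Flrt3, an Unc5 ligand and adhesion protein, had 957, 725 and 835 counts against 513 and 451 (log2 0.98, adjusted p = 0.0516 by edgeR). Spon1, a secreted matrix protein of the floor plate, had 29025, 26397 and 32046 against 22528 and 18083 (log2 0.70, adjusted p = 0.0782). Slitrk1, a synaptic adhesion protein, had 9, 22 and 12 against 67 and 58 (log2 -1.93, adjusted p = 0.111), and Nrcam, a neuronal adhesion co-receptor of neuropilins, had 438, 392 and 418 against 765 and 822 (log2 -0.75, adjusted p = 0.0548). These 4, taken from the genes past that threshold, are 2 of the 11 higher genes and the 2 lower ones. None of the 4 had overlapping groups.

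Of the marker lists for cell types that the dissected ring could hold, some had sums that stood apart by genotype and others overlapped. Nonpigmented ciliary epithelium had the same order as the called genes: its 10 markers summed to 1405, 1484 and 1739 CPM in DBA/2J and 1140 and 906 in Gpnmb+. In that list 9 of 10 log2 fold changes were positive and 3 genes were called higher (Six6, Col9a1 and Col9a2), with a median of 1.61. Skeletal muscle markers were positive in 8 of 8, with 0 called, and sums of 162, 242 and 424 against 175 and 126 CPM overlapped. Macrophage markers were positive in 7 of 8, with 0 called and sums of 714 to 983 against 670 to 804 CPM.

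Other lists ran the opposite way or had no order. Schwann cell markers summed to 267 to 329 CPM in DBA/2J and 368 to 421 in Gpnmb+, positive in 1 of 10, and S100b was called lower. Trabecular meshwork markers summed to 3578 to 4215 against 5137 to 5281 CPM, positive in 0 of 7, and Edn3 was called lower. The sums overlapped for vascular endothelium, at 502 to 648 against 547 to 581 CPM, positive in 4 of 10 with 0 called. They also overlapped for retinal neurons, at 515 to 658 against 404 to 1268 CPM, positive in 2 of 10 with Nefm called lower. Corneal epithelium stood at 6860 to 11291 against 11273 to 12661 CPM, which overlapped narrowly. Its markers were positive in 1 of 8 and negative in 7, with 0 called. No marker was at 0 in any pool. The part that a different mix of cells had in the 5 calls was not tested.

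Within the genotypes, Gpnmb+ pool 1 was above pool 2 in all 5 called genes and in every marker sum but those of Schwann cells and retinal neurons. DBA/2J pool 3 was the highest DBA/2J pool for Reln, Slit2, Unc5c and Epha5 and for the sums of ciliary epithelium and skeletal muscle, and pool 1 was the highest for Sema3e.

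**Figure D4:**
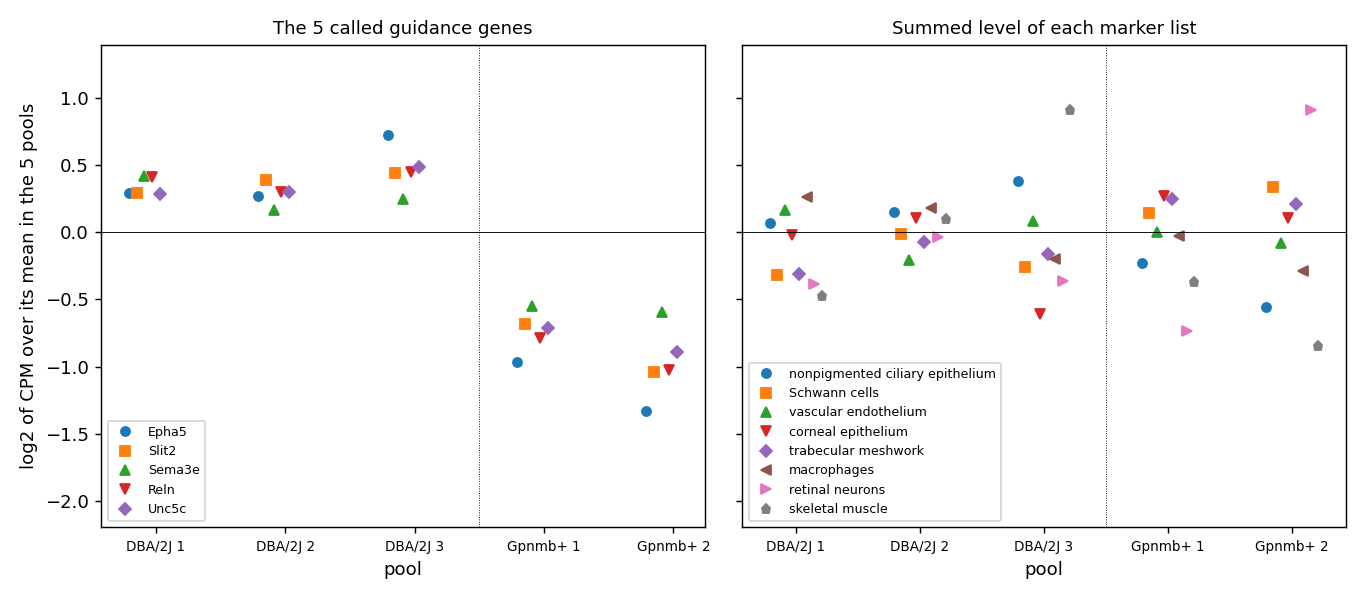
Log2 of the CPM in each pool over its mean in the 5 pools (vertical axis) for the 5 called guidance genes (left) and the summed CPM of 8 marker lists (right), with one symbol per gene or list and the genotypes parted by a dotted line. The called genes, which were chosen on these same pools, are above 0 in every DBA/2J pool and below 0 in both Gpnmb+ pools. Nonpigmented ciliary epithelium lies likewise, with sums of 1405 to 1739 against 906 to 1140 CPM.

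The directions of the 11 genes held in each fit without 1 pool, while the calls did not. Without DBA/2J pool 1, 2 or 3, or without Gpnmb+ pool 2, 0 guidance genes were called by edgeR. Without Gpnmb+ pool 1, 3 were called: Reln, Slit2 and Unc5c. Reln kept a log2 fold change of 1.18 to 1.42 over these fits, with adjusted p from 0.0277 to 0.107, and Unc5c of 1.08 to 1.25, with adjusted p from 0.0355 to 0.108. Slit2 ran from 1.06 to 1.42 (adjusted p from 0.0220 to 0.107), Epha5 from 1.42 to 1.78 (0.0547 to 0.162) and Sema3e from 0.78 to 0.91 (0.0982 to 0.197). Dab1 lost its call without any DBA/2J pool or without Gpnmb+ pool 2, with adjusted p of 0.0627 to 0.117, and kept it without Gpnmb+ pool 1. Over all genes the calls ranged from 1 to 217 in these fits, which have fewer samples.

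**Figure D5:**
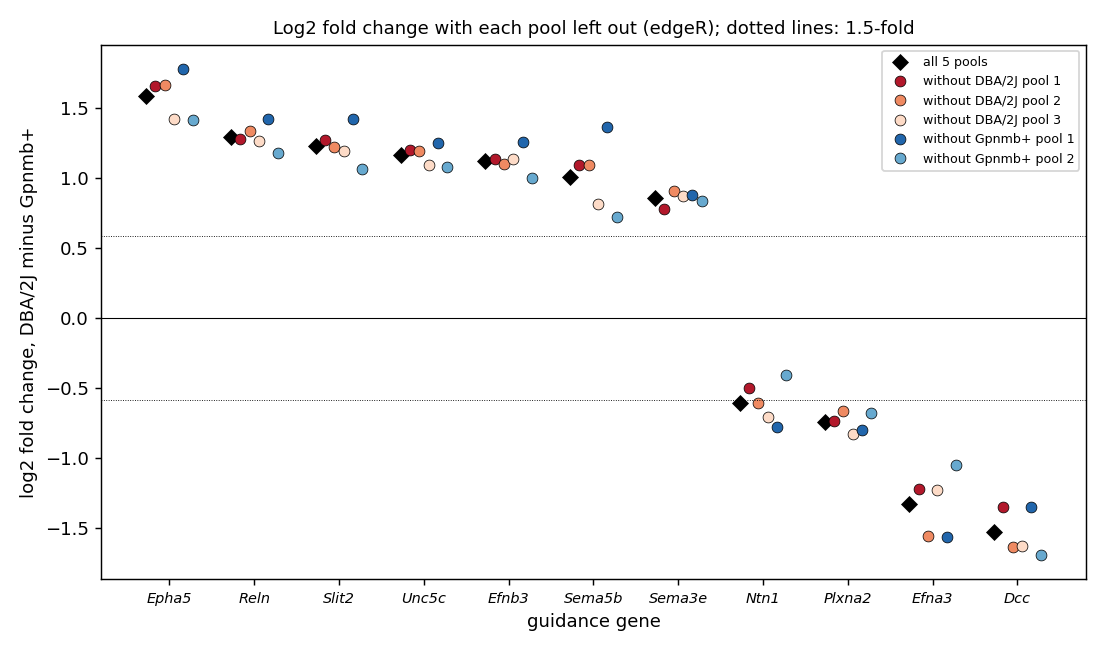
Log2 fold change (DBA/2J minus Gpnmb+, vertical axis) of the 11 guidance genes past the unadjusted threshold, with all 5 pools (diamonds) and with each pool left out in turn (circles), and 1.5-fold as dotted lines. No gene crosses 0, the 5 called genes stay above the upper dotted line, and Ntn1 comes closest to 0 at -0.40 without Gpnmb+ pool 2.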

How the data were processed

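Each pool was described as 3 mice, although the names of the Gpnmb+ libraries list fewer animals than those of DBA/2J. Libraries were made with the Kapa mRNA HyperPrep kit. After trimming in fastp and alignment to GRCm39 in STAR, the authors summed the reads of a single location over genes. The deposited table holds these counts, not normalized. The counting strand is not given in the sources used here, so antisense overlaps are uncertain. The deposited counts covered 56941 identifiers (24930 with no count), of which 56323 are in GENCODE M39 (Ensembl 116), the source of names, positions and transcript lengths. No 2 libraries were identical.

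The members and lists were chosen with earlier results of these data known. Genes that reached 10 counts in 1 pool or more were scaled by TMM and tested with edgeR 4.0.16 in R 4.3.3 (quasi-likelihood, no covariate). p-values were adjusted over all genes, and the common biological coefficient of variation was 20.7%. The p-values weigh the difference between genotypes against the spread between pools. Python 3.11.15 was used for tables (pandas 2.3.3, numpy 2.4.6). Tested on simulated data for the same comparison, with 200 of 19207 genes changed by 2 on the log2 scale, edgeR recovered 94% with 14 false calls. The changed genes were drawn from those with higher mean counts. Guidance genes ran only from -1.53 to 1.58, and recovery of changes of that size was not measured.

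Values in every pool were planned for members called, members past the unadjusted threshold, the member of each family with the highest level per length, and X-linked members. Some further members, whose pools did not overlap or which are partners of called members, were added after their values were seen. Of other genes, Gpnmb, sex-linked genes, some pathway genes past a threshold and some called markers were named. Alternatives were DESeq2's size factors, edgeR's filterByExpr, no count filter, no minimum fold, limma-voom 3.58.1, DESeq2 1.42.0 without and with ashr 2.2.63, the pool number as a block, and leaving out each pool. Chil1 had no matching symbol and was left out of the trabecular meshwork list. Promoters came from RefSeq's GRCm38.p6 and were matched by symbol. The study's own comparisons were not used. Some marker genes are not reported here by name.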

Additional observations from a re-analysis of the deposited data

How the results depend on the processing

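The number of calls moved with the test. With DESeq2's Wald test, 927 genes in all, 4 guidance genes as lower and 10 wider pathway genes were called, and with ashr moderation 734, 3 and 10, against 157, 0 and 1 by edgeR. With no count filter the numbers were 360, 1 and 3, and the guidance median was 0.028. With no minimum fold, 25 guidance genes passed the unadjusted threshold instead of 11. Higher guidance calls were 7 under both DESeq2 fits, 6 with no count filter and 5 under limma-voom, DESeq2's size factors and filterByExpr.

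Pool numbers recur in both genotypes, but the labels give them no shared litter or day, and pool 1 minus pool 2 correlated by 0.303 between genotypes over 19713 genes with only 2 pairs. With the number as a block, 4 guidance genes were called, without Sema3e (adjusted p = 0.0627 by edgeR), 220 genes in all were called, and the guidance median was -0.048. Leaving out each pool gave 1 to 217 calls in all, 0 to 3 guidance genes higher, 11 to 15 past the unadjusted threshold, a guidance median of -0.055 to 0.037 and 0 to 1 wider pathway genes. Where a Gpnmb+ pool is left out, the lone pool is assumed to vary like the DBA/2J pools.

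For 60 named genes under 12 alternatives, 637 results stayed on the same side, 33 gained and 27 lost a call, and 19 changed sign, all of genes whose log2 fold change lay between -0.15 and 0.06 in the fit of the report. Under the block, Robo4 was at -0.085, Efna2 at -0.047 and Efnb2 at 0.046. Leaving out each pool, the range was -0.28 to 0.0030 for Epha4, -0.0063 to 0.14 for Robo1, -0.13 to 0.16 for Robo4, -0.079 to 0.11 for Sema4d, -0.19 to 0.053 for Efna1, -0.047 to 0.086 for Efna2, -0.14 to 0.11 for Efnb2, -0.13 to 0.037 for Unc5b, -0.090 to 0.036 for Nrp1, -0.072 to 0.17 for Plxnd1 and -0.33 to 0.072 for Vldlr. The causes were not tested. Precision was limited by 3 and 2 pools, and for Dcc by at most 91 counts.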
